A study of Homo sapiens with 2 samples.

Results

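A set of 10 long non-coding RNA (lncRNA) genes that carry small nucleolar RNAs (snoRNAs) in their introns were followed in RKO cells, a human colorectal carcinoma line, with and without knockdown of HNRNPM. The genes were SNHG1, SNHG5, SNHG6, SNHG7, SNHG8, SNHG12, SNHG15, SNHG16, GAS5 and ZFAS1, taken by symbol from a list, and all 10 were found among the 54261 features of the count table. There were 2 RNA-seq libraries, 1 after transfection with siNC, the control siRNA, and 1 after transfection with siHNRNPM, directed at the gene of an RNA-binding protein that takes part in splicing. The control cells are labelled WT and the others HNRNPM knockdown, both are the same line grown in the same medium, and the time after transfection is not given in the sources used here. With 1 library in each group there was no replicate, so no p-value is given, and every interval below is a 95% interval of counting error that leaves out variation between cultures.

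The control library held 19931360 reads and the siHNRNPM library 13056118. HNRNPM itself had 1042 reads in the siHNRNPM library, or 79.6 CPM (counts-per-million units), against 2870 reads, or 144 CPM, in the control library. Its level was 55.2% of control, with an interval from 51.3% to 59.2%, so it was lower in the library labelled as the knockdown. Mitochondrial genes took 4.58% of reads in the siHNRNPM library and 4.45% in the control library. Of 8 colorectal epithelial markers, 4 (KRT8, KRT18, EPCAM and CDX2) reached 1 CPM in both libraries, while KRT20 was listed at 0 and KRT19, VIL1 and CDH1 had at most 10 reads. Liver-type markers differed between the libraries. Of 9 such genes, 7 had a read in the siHNRNPM library and 3 in the control library, summing to 33.8 CPM and 0.553 CPM, led by SERPINA1 (177 against 6 reads), AFP (174 against 1) and ALB (77 against 0), with APOA1 and TTR at 0 in both. The 5 fibroblast or mesenchymal markers summed to 29.6 CPM in each library, mostly from VIM with 342 reads in the siHNRNPM library and 558 in the control library. COL1A1 had 21 against 13 reads and COL1A2 14 against 8, both with intervals above a ratio of 1. Among leukocyte and endothelial markers, PTPRC, CD3E, PECAM1 and CDH5 had at most 2 reads, and CD68, which other cells also express, had 885 and 765 CPM. The part of the liver-type and collagen signal in the values below was not tested. In RNA from whole cultures, fewer cells of a kind and less RNA per cell cannot be told apart.

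A snoRNA host gene is transcribed as a long precursor, and the snoRNAs are trimmed out of its spliced-out introns. C/D snoRNAs guide 2′-O-methylation and H/ACA snoRNAs guide pseudouridylation of ribosomal and spliceosomal RNA. In the non-coding hosts the joined exons hold only short reading frames, and ribosomes that stop early on them can bring the RNA to nonsense-mediated decay. Many such hosts also begin with a terminal oligopyrimidine (TOP) tract, a C followed by a run of C and T, as ribosomal protein genes do. Their RNA can therefore build up when translation slows, as described for GAS5 in growth-arrested cells. Translation and RNA decay were not measured here, so the sensitivity of these genes to translation is background and not a property read from the 2 libraries.

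Most of the hosts have an annotated transcript that starts with a run of C and T, though only 16.9% of their transcripts do. The starts below were chosen for that run, so they do not show how common it is. Each sequence below is the first 30 bases of 1 annotated transcript, read from GENCODE release 29 on GRCh38, with the opening run of C and T in capitals. The start shown is the annotated one with a run of 5 or more that lies nearest the RefSeq start, or the one with the longest run where no transcript has 5. The first 3 are the hosts with the highest ratios, followed by 4 abundant hosts and by SNHG15, which lacks the run.
SNHG7 (chr9:136728155-136728184, minus strand): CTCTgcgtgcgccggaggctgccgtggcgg
SNHG12 (chr1:28581844-28581873, minus strand): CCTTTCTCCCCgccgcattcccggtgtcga
SNHG8 (chr4:118278758-118278787, plus strand): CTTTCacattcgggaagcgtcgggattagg
ZFAS1 (chr20:49278642-49278671, plus strand): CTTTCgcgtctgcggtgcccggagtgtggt
GAS5 (chr1:173867960-173867989, minus strand): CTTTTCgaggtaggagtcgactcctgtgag
SNHG16 (chr17:76557769-76557798, plus strand): CTTTTCgaggtcggccgcgtggctggaaga
SNHG5 (chr6:85678704-85678733, minus strand): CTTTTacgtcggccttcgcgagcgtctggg
SNHG15 (chr7:44986541-44986570, minus strand): CCgccatcctgggccccacgtgttgcctga

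In GAS5 and SNHG16 the tract reads the same, and SNHG12 has the longest run among the starts shown, at 11 bases. Of the 10 hosts, 8 had at least 1 annotated transcript that begins with C in a run of 5 or more pyrimidines, the exceptions being SNHG7, with a run of 4, and SNHG15. The share of genes with such a transcript was 33.3% among other snoRNA host lncRNAs, 84.0% among ribosomal protein genes that host snoRNAs, 4.12% among lncRNA genes and 6.58% among all genes. By transcript this was 23 of 136, or 16.9%, against 8.65% for the other snoRNA host lncRNAs, 2.50% of transcripts of lncRNA genes and 2.41% of all transcripts. The ribosomal protein hosts had 22.1% of transcripts with the run. The share of genes with at least 1 such transcript rises with the number of transcripts annotated, and annotated starts need not be the starts used in RKO cells.

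In addition, 4 hosts have a TATA element in the 40 to 11 bases before the RefSeq start. The windows below run from 45 bases before that start to 14 after it, from RefSeq promoters on GRCh38.p14, with the element in capitals, and they are shown because they hold the start of SNHG7, the host with the largest difference between the libraries, beside 3 others with the same layout.
SNHG7 (chr9:136728170-136728229, minus strand): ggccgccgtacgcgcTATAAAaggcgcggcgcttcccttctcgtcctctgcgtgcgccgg
SNHG12 (chr1:28581859-28581918, minus strand): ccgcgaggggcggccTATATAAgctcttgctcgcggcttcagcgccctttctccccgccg
SNHG5 (chr6:85678719-85678778, minus strand): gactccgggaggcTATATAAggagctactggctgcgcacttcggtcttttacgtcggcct
ZFAS1 (chr20:49278597-49278656, plus strand): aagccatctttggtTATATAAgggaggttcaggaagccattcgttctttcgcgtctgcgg

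The letters TATAAA or TATATAA, searched on the strand of the gene, were present in this stretch in 4 of the 8 host promoters in the RefSeq table and in 2.74% of all 35116 promoters. TATAAA was in 1 host, SNHG7, and in 2.34% of all promoters, and TATATAA in 3 hosts and 0.609%. The search for these letters was not planned beforehand. The E-box letters CACGTG, which read the same on both strands and are bound by MYC and related factors, were found in the 300-base window of SNHG7 alone among the 8, and in 7.26% of all promoters. SNHG6 and SNHG15 were not matched in that table, and the SNHG15 start printed above also holds CACGTG. For GAS5 the RefSeq start, at position 173869045, lies outside the GENCODE gene span, which ends at 173868882, and the start printed above is at 173867989. For SNHG1 the RefSeq start is at 62855885 and the annotated start with the run of C and T at 62855479. The searched windows of GAS5 and SNHG1 therefore do not cover those starts with the run, and absence of the letters says nothing about them. A match of letters is a description and was not tested for use.

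The 10 hosts differed widely in place and build. In GENCODE 29 on GRCh38, SNHG12 (ENSG00000197989.14, chr1:28578538-28583132) and GAS5 (ENSG00000234741.7, chr1:173863900-173868882) lie on the minus strand of chromosome 1. Also on minus strands are SNHG5 (ENSG00000203875.11, chr6:85660950-85678748), SNHG15 (ENSG00000232956.8, chr7:44983023-44986961), SNHG6 (ENSG00000245910.8, chr8:66921684-66926398), SNHG7 (ENSG00000233016.6, chr9:136721366-136728184) and SNHG1 (ENSG00000255717.6, chr11:62851988-62855914). SNHG8 (ENSG00000269893.6, chr4:118278709-118279823), SNHG16 (ENSG00000163597.14, chr17:76557766-76565348) and ZFAS1 (ENSG00000177410.12, chr20:49278178-49295738) lie on plus strands. Their longest transcripts run from 648 bases in SNHG6 to 3607 in SNHG16, and the number of annotated transcripts from 4 in SNHG7 to 29 in GAS5. RefSeq places 37 snoRNA entries inside their spans, 28 of the C/D class and 8 of the H/ACA class. GAS5 and SNHG1 hold the most C/D snoRNAs, 10 and 8, whereas SNHG7, SNHG8 and SNHG15 hold H/ACA snoRNAs alone and SNHG12 holds 3 H/ACA and 1 C/D. Because GENCODE lists many transcripts that keep introns, 30 of the 37 snoRNAs lie wholly within the union of annotated host exons. Reads over such a snoRNA, over a kept intron and over the host can therefore not be told apart without the annotation the authors counted with.

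**Figure D1:**
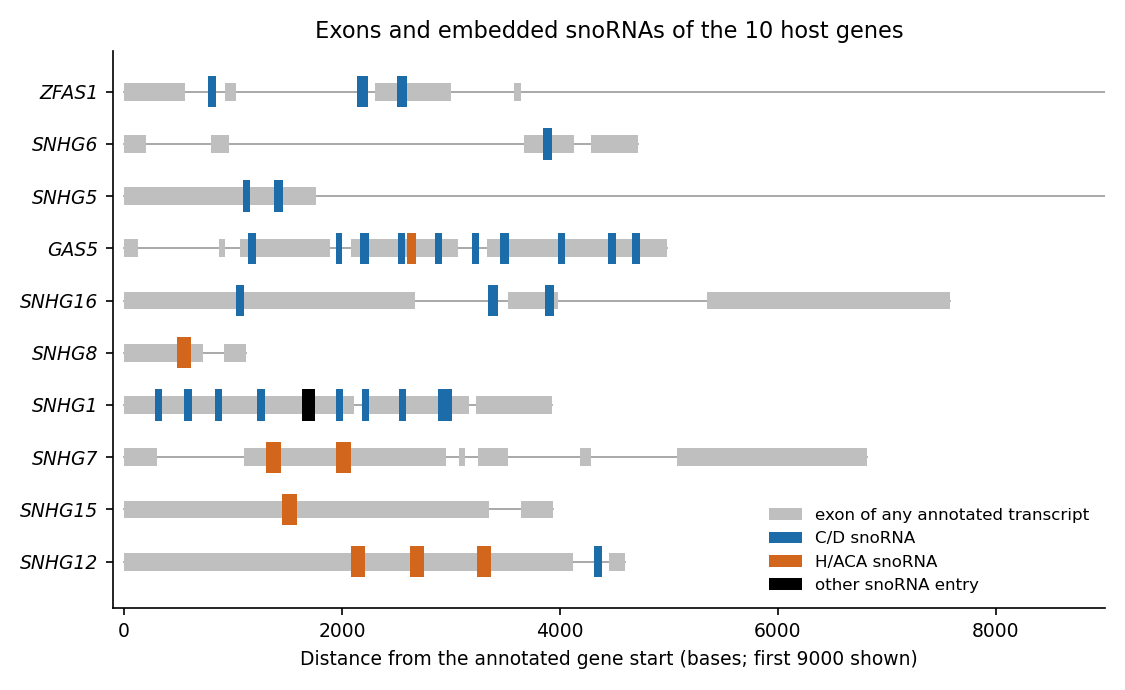
Map of the 10 host genes, ordered by level in the control library, with distance in bases from the annotated gene start on the x axis and the longest genes cut at the right edge. Grey blocks are exons of any annotated transcript, blue blocks C/D snoRNAs, orange blocks H/ACA snoRNAs and black another snoRNA entry; GAS5 and SNHG1 carry rows of C/D snoRNAs, and most snoRNAs lie on grey.

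Examples of the cargo, as GENCODE 29 gives them, show the boxes that define the classes. SNORD25, from SNHG1, is a C/D snoRNA with a C box and a D box in capitals, and SNORA61, from SNHG12, is an H/ACA snoRNA with its closing ACA in capitals.
SNORD25 (chr11:62855564-62855632, minus strand): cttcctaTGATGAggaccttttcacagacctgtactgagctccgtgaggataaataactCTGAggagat
SNORA61 (chr1:28579764-28579893, minus strand): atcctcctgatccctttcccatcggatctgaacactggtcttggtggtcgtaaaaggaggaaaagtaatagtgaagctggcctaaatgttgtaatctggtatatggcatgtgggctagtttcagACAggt

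In the control library the levels of the hosts, given as RPKM (CPM per kilobase of the union of annotated exons), covered a 72.8-fold range. ZFAS1, whose start lies against that of the ZNFX1 gene on the other strand, stood at 123 RPKM (counting interval 120 to 126) and SNHG6, the host of SNORD87, at 121 RPKM (117 to 126). These intervals overlap, so the order of the top pair was not separated by counting error. SNHG5, the host of the SNORD50 copies, followed at 58.2 RPKM and GAS5 at 45.9 RPKM, each separated from its neighbours in the order. SNHG16 at 24.7 RPKM, SNHG8 at 23.7 RPKM and SNHG1 at 21.5 RPKM were not separated from one to the next, although SNHG16 and SNHG1 were from each other. SNHG7 had 9.56 RPKM, SNHG15 7.09 RPKM and SNHG12 1.69 RPKM, each apart from the next.

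In the siHNRNPM library the order was the same but for SNHG8, which at 32.5 RPKM (29.3 to 35.8) lay above SNHG16 at 25.9 RPKM (24.7 to 27.1). ZFAS1 had 138 RPKM and SNHG6 131 RPKM, again overlapping, and SNHG12 was lowest at 2.36 RPKM. The ranks in both libraries were the same for all 10 genes when the longest transcript was used as the length in place of the exon union.

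**Figure D2:**
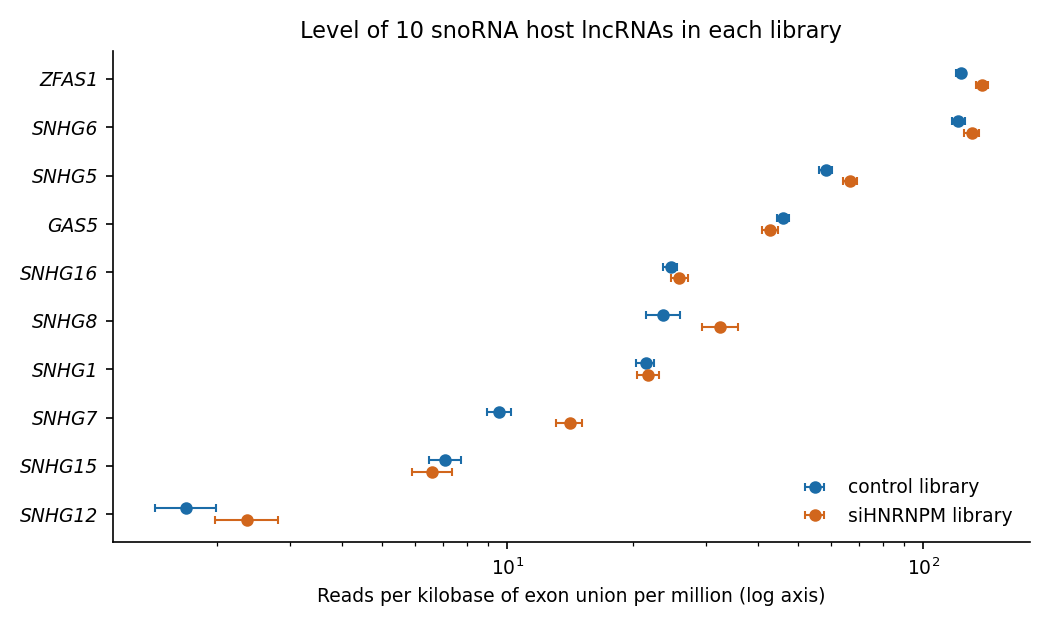
Level of each of the 10 host genes on a log axis, in RPKM over the exon union, in the control library (blue) and the siHNRNPM library (orange), with 95% Poisson counting intervals. ZFAS1 and SNHG6 are highest in both libraries and SNHG12 lowest, and the points of SNHG7, SNHG8 and SNHG12 lie visibly to the right in the siHNRNPM library.

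Between the libraries, 6 of the 10 hosts were higher in the siHNRNPM library, 1 was lower and the intervals of 3 included a ratio of 1. Over all 12925 genes measured, meaning those with 1 CPM or more in at least 1 library, 22.0% were higher and 26.1% lower by the same rule. Of the 9238 genes inside the range of mean CPM of the hosts, 22.1% were higher and 30.1% lower. Of the 514 measured lncRNA genes, 30.4% were higher and 8.37% lower, and of the 103 lncRNA genes in that CPM range, 42.7% were higher and 17.5% lower, so the background against which 6 of 10 is read depends on the genes chosen. No host passed 2-fold, which 2.45% of all measured genes did upward and 1.49% downward. The same shares were 0.336% and 0.249% of genes in the CPM range, 14.0% and 1.75% of lncRNA genes, and 0.971% and 0% of lncRNA genes in the CPM range. The median log2 ratio of the hosts was 0.14, against -0.01 over all measured genes, 0.19 over measured lncRNA genes and 0.14 over lncRNA genes of like CPM.

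The largest differences were in SNHG7, SNHG12 and SNHG8. SNHG7, a host of the SNORA17 copies on chromosome 9, had 826 reads (41.5 CPM) in the control library and 800 reads (61.1 CPM) in the siHNRNPM library. It was 1.47-fold higher, with a log2 ratio of 0.56 (0.42 to 0.70), and it was the only host whose whole interval lay beyond 0.32 on the log2 scale. SNHG12, with 3 H/ACA snoRNAs and SNORD99 on chromosome 1, had 143 reads (7.19 CPM) and 132 reads (10.1 CPM), a log2 ratio of 0.49 (0.14 to 0.84). SNHG8, the host of SNORA24 on chromosome 4, had 435 reads (21.9 CPM) and 392 reads, or 137% of control in CPM, a log2 ratio of 0.45 (0.25 to 0.65). The intervals of these 3 overlapped one another. That of SNHG7 lay above the intervals of each of the other 7 hosts, while that of SNHG12, the host with the fewest reads, reached down to those of SNHG5, ZFAS1, SNHG6 and SNHG16.

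A further 3 hosts, all abundant and carrying C/D snoRNAs alone, were higher by less. SNHG5, on chromosome 6, had 3245 reads (163 CPM) in the control library and 2448 reads (187 CPM) in the siHNRNPM library, a log2 ratio of 0.20 (0.12 to 0.27). ZFAS1, on chromosome 20 and the host of the SNORD12 group, had 5474 reads (275 CPM) and 4065 reads (311 CPM), a log2 ratio of 0.17 (0.12 to 0.23). SNHG6 had 3008 reads (151 CPM) and 2133 reads (163 CPM), a log2 ratio of 0.11 (0.03 to 0.19). Their intervals overlapped, and none of the 3 exceeded 1.15-fold.

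GAS5 was the 1 host that was lower. This gene, named for its accumulation in growth-arrested cells, had 3316 reads (167 CPM) in the control library and 2035 reads (155 CPM) in the siHNRNPM library, or 93.2% of control with an interval from 88.2% to 98.6%. Its log2 ratio of -0.10 (-0.18 to -0.02) kept its sign under all 7 other settings of scaling, filter and depth, but its interval reached a ratio of 1 under 3 of them, namely upper-quartile scaling, scaling on protein-coding genes and thinning of the control library. The filter settings could not change the ratio or interval of GAS5, since they use the same counts and scaling. The interval of GAS5 lay below those of every other host except SNHG1 and SNHG15, which it overlapped.

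For SNHG1, SNHG15 and SNHG16 the libraries could not be told apart at this depth. SNHG1, the host of SNORD22 and SNORD25 to SNORD31, had 1602 reads (80.6 CPM) and 1071 reads (81.8 CPM), a log2 ratio of 0.02 (-0.09 to 0.13). SNHG16, the host of the SNORD1 group, had 2630 reads (132 CPM) and 1816 reads (139 CPM), a log2 ratio of 0.07 (-0.02 to 0.16). SNHG15, the host of SNORA9, had 514 reads (25.9 CPM) and 315 reads (24.1 CPM), a log2 ratio of -0.10 (-0.31 to 0.10). The interval of SNHG15 leaves room for a level between 80.7% and 107% of control.

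Summed over the 10 genes there were 21193 reads in the control library, 0.106% of it, and 15207 in the siHNRNPM library, 0.116%. The log2 ratio of the sums was 0.12 (0.09 to 0.15), and 56.8% of the control reads came from ZFAS1, GAS5 and SNHG5.

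**Figure D3:**
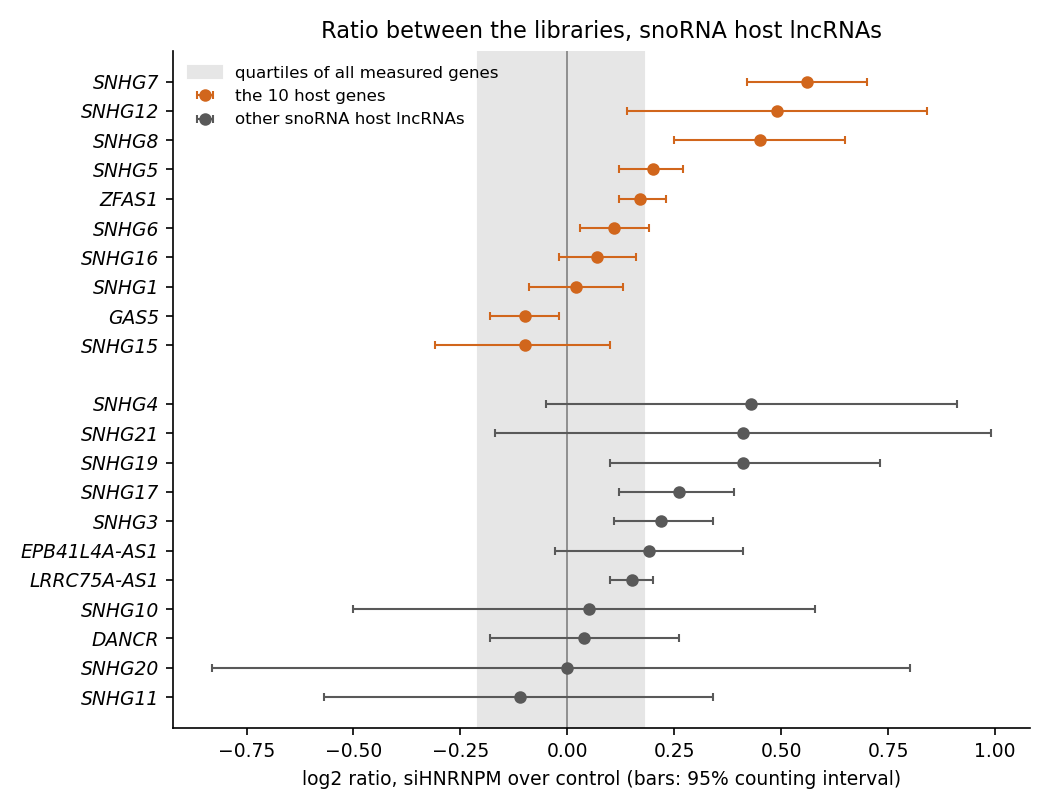
Log2 ratio (siHNRNPM over control) on the x axis for the 10 host genes (orange) and 11 other snoRNA host lncRNAs (grey), with 95% counting intervals, and the quartiles of all measured genes shaded. SNHG7, SNHG12 and SNHG8 lie to the right of the shaded band at 0.45 to 0.56, and GAS5 and SNHG15 lie to the left of 0 at -0.10.

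Transcript length moved with the ratio across the table and bears on these values. Among measured genes in the CPM range of the hosts, the median log2 ratio was 0.11 where the longest annotated transcript was under 1000 bases, 0.06 from 1000 to 2000, 0.00 from 2000 to 4000, -0.07 from 4000 to 8000 and -0.11 above 8000. In the same order, 41.5%, 31.6%, 23.8%, 17.7% and 12.7% of these genes were higher in the siHNRNPM library. All 10 hosts have a longest transcript under 4000 bases, so they sit in the 3 classes with the larger shares. Relative to the median of all measured genes in the same length class, 5 hosts were higher, GAS5 was lower, and the median came to 0.08. SNHG7 kept 0.55 (0.41 to 0.69), SNHG12 0.42 (0.07 to 0.77) and SNHG8 0.35 (0.15 to 0.55). SNHG6 came to 0.00 (-0.08 to 0.08), and GAS5 to -0.17 (-0.25 to -0.09). What sets the trend with length was not tested.

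**Figure D4:**
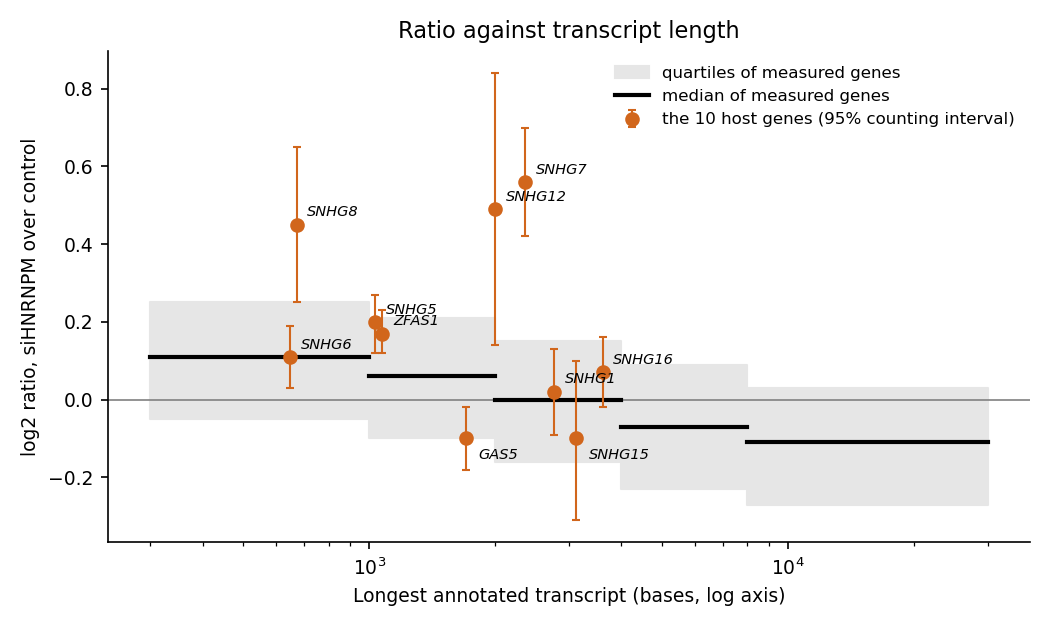
Log2 ratio (siHNRNPM over control) against the longest annotated transcript in bases on a log axis. Black lines are medians and grey bands quartiles of measured genes in the CPM range of the hosts, with the outermost classes open-ended; orange points are the 10 hosts with 95% counting intervals. The medians step down from 0.11 to -0.11, SNHG6 lies on its class median, and SNHG7, SNHG12 and SNHG8 lie above the band of their class.

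Reads counted over the snoRNAs themselves were few. Of the 37 entries inside the hosts, 36 were in the table and 9 reached 1 CPM in at least 1 library, of which 1 was higher, 1 was lower and the intervals of 7 included a ratio of 1. The shares over all measured genes were 22.0% higher and 26.1% lower. SNORD31, in SNHG1, had 91 reads (4.58 CPM) in the control library and 101 reads (7.72 CPM) in the siHNRNPM library, a log2 ratio of 0.75 (0.33 to 1.18), where its host had 0.02. SNORD80, in GAS5, had 141 reads (7.09 CPM) and 50 reads (3.82 CPM), a log2 ratio of -0.89 (-1.39 to -0.42), where its host had -0.10. Both lie wholly inside annotated exons of their host.

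For other snoRNAs of these hosts that reached 1 CPM, the intervals included a ratio of 1 and overlapped those of SNORD31 or SNORD80. SNORD25, whose sequence is shown above, had 139 and 88 reads, a log2 ratio of -0.06 (-0.46 to 0.34), and SNORD74 and SNORD44 in GAS5 had -0.02 and 0.11 with intervals that include 0. Below 1 CPM in both libraries, SNORD27 in SNHG1 had 3 and 9 reads (0.19 to 4.71 on the log2 scale), SNORD29 in SNHG1 had 0 and 5 reads, and SNORD77 in GAS5 had 3 and 9 reads (0.19 to 4.71). These intervals lay above a ratio of 1, and the 3 genes were chosen after their values were seen. No share over all genes below 1 CPM is set beside them, so they are not read as a result for the snoRNAs. SNORA61, in SNHG12, had 33 and 27 reads, a log2 ratio of 0.31 (-0.48 to 1.09). SNORA17A, SNORA17B and SNORA24, the cargo of SNHG7 and SNHG8, were listed at 0 in both libraries, where 3 reads would be 0.151 CPM in the control library and 0.229 CPM in the siHNRNPM library. The 36 entries together had 726 and 507 reads, a log2 ratio of 0.09 (-0.08 to 0.25). The size selection of the libraries is not given in the sources used here, so these counts are not levels of mature snoRNA.

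Neighbouring genes can share reads with a host, since the use of strand in counting is not given in the sources used here. ZNFX1, whose start lies 248 bases from that of ZFAS1 on the other strand, shares 249 exonic bases with it, or 11.1% of the ZFAS1 exon union. ZNFX1 had 1355 reads (68.1 CPM) in the control library and 1119 reads (85.5 CPM) in the siHNRNPM library, a log2 ratio of 0.33 (0.21 to 0.44). SLC3A2, the gene of an amino-acid transporter heavy chain, starts 188 bases from SNHG1 on the other strand with no shared exon. It had a log2 ratio of 0.26 (0.18 to 0.35) beside the 0.02 of SNHG1.

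ZBTB37, a zinc-finger gene that overlaps GAS5 on the other strand with no shared exonic base, had 438 reads (22.0 CPM) and 136 reads (10.4 CPM). Its log2 ratio of -1.08 (-1.37 to -0.80) passed 2-fold, unlike that of GAS5. TRNAU1AP, which shares 8 exonic bases with SNHG12, had 502 and 339 reads and a log2 ratio of 0.04 with an interval that includes 0. MCMDC2 overlaps 29.3% of the SNHG6 exon union and had 4 and 5 reads, and FAM69B overlaps 25.2% of that of SNHG7 and was listed at 0 in both libraries. GAS5-AS1 had 7 reads in the control library and 0 in the siHNRNPM library.

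Other snoRNA host lncRNAs were taken from a list of their own. Of 23 listed, 17 were in the table and 11 were measured, 3 of them (SNHG10, SNHG20 and SNHG21) with no RefSeq snoRNA entry inside their span. Of the 11, 4 were higher, 0 lower and 7 had intervals that include a ratio of 1, with a median log2 ratio of 0.19. By the same rule 30.4% of measured lncRNA genes were higher and 8.37% lower, against 22.0% and 26.1% of all measured genes. SNHG19, the host of SNORD60, had 179 and 157 reads and a log2 ratio of 0.41 (0.10 to 0.73). SNHG17, which carries the SNORA71 group, had 1031 and 812 reads and 0.26 (0.12 to 0.39), and SNHG3, which carries SNORA73A and SNORA73B, had 1365 and 1050 reads and 0.22 (0.11 to 0.34). LRRC75A-AS1, the host of SNORD49 copies and SNORD65, was the most abundant by CPM, at 380 and 422 CPM, with 0.15 (0.10 to 0.20). No other host passed 2-fold.

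Protein-coding genes listed as snoRNA hosts split by kind. The snoRNA entries inside their spans were not looked up, unlike those of the host lncRNAs. Of 25 ribosomal protein hosts, 18 were higher, 2 lower and 5 spanned a ratio of 1, where 22.0% of all measured genes were higher and 26.1% lower. Their median log2 ratio was 0.14, the same value as for the 10 non-coding hosts, and their many reads make small differences pass the rule. RPL37, RPS20, RPS3 and RPL5 led them with log2 ratios of 0.33, 0.31, 0.30 and 0.29, from 17094 or more reads in the control library. Genes of this family have processed pseudogenes that can share reads, so each value is uncertain. Of 33 measured protein-coding hosts outside the ribosome, 9 lay above a ratio of 1, 13 below and 11 spanned it, and the median was -0.02. NAP1L4, counted as below, EEF1B2, which spanned, and RPL7A among the ribosomal hosts have an annotated copy outside the primary genome assembly. Its effect on their counts was not tested. NFATC3 (a transcription factor), EIF4G2 (a translation initiation factor), IPO7 (importin 7) and KPNA2 (an importin alpha) had the largest values, all lower, at -0.69, -0.45, -0.39 and -0.37. The longest transcripts of these 2 lists had medians of 2058 and 4196 bases, and relative to genes of like length the list medians were 0.09 and 0.01.

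The genes of the decay pathway that degrades many of these hosts showed no single direction in RNA level. The activity of the pathway was not measured. Of 24 factors of nonsense-mediated decay and its downstream steps, all measured, 7 were higher, 9 lower and 8 spanned. The list median was -0.05, against -0.01 over all measured genes, of which 22.0% were higher and 26.1% lower. The median longest transcript in this list was 4760 bases, and relative to genes of like length the list median was 0.02. Among measured genes with a longest transcript of 4000 to 8000 bases, 18.0% were higher and 35.3% lower. RNPS1, an RNA-binding protein tied to the exon junction complex, had 2077 and 1893 reads (104 and 145 CPM) and a log2 ratio of 0.47 (0.38 to 0.56). DCP1A, the cofactor of the decapping enzyme, had 1996 and 921 reads (100 and 70.4 CPM) and -0.51 (-0.63 to -0.40), and the enzyme gene itself, DCP2, had -0.36 (-0.45 to -0.27). NBAS, a factor with a role in decay at the endoplasmic reticulum, had -0.32 (-0.43 to -0.22). UPF1, the central helicase of the pathway and chosen here after its value was seen, had 0.07 with an interval that reaches -0.03.

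Protein-coding genes with transcripts known as substrates of the same pathway lay on both sides too. Counts are per gene symbol, so transcripts that are substrates and other transcripts of the same gene cannot be told apart. The values are therefore not levels of the substrates alone. Of 19 measured, 7 were higher and 4 lower, 8 spanned, and the median was 0.00, beside 22.0% higher and 26.1% lower over all measured genes. GADD45A, a growth-arrest gene, had 0.65 (0.57 to 0.73) and the pseudokinase gene TRIB3 0.34 (0.17 to 0.51). GADD45B, of the same family as GADD45A, had -0.46 (-0.64 to -0.28) and CDKN1A, the gene of the cell cycle inhibitor p21, -0.43 (-0.52 to -0.35).

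For most genes of proteins that package snoRNAs the interval included a ratio of 1. Of 19 measured snoRNP proteins and assembly factors, 4 were higher, 2 lower and 13 spanned. Among those that spanned, FBL had only 31 and 19 reads and ZNHIT3 16 and 14, so their intervals were wide. Both also have an annotated copy outside the primary genome assembly, and its effect on their counts was not tested. The median of this list was 0.05, and the shares over all measured genes were 22.0% higher and 26.1% lower. NOLC1, a nucleolar chaperone of snoRNPs, had 1173 and 1319 reads (59.0 and 101 CPM) and 0.77 (0.66 to 0.89). SNU13, a core C/D protein, had 0.22 (0.12 to 0.31), while RPAP3, a cofactor of snoRNP assembly, had -0.38 (-0.53 to -0.24) and SHQ1, an assembly chaperone of H/ACA snoRNPs, -0.36 (-0.59 to -0.12).

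Genes that control TOP mRNAs and growth had a lower median, -0.18, with 4 of 13 higher, 7 lower and 2 spanning. The shares were 22.0% higher and 26.1% lower over all measured genes. Among measured genes with a longest transcript of 4000 to 8000 bases they were 18.0% and 35.3%. MTOR, the growth-control kinase that acts on TOP mRNA translation, had 1973 reads (99.2 CPM) in the control library and 826 reads (63.1 CPM) in the siHNRNPM library, a log2 ratio of -0.65 (-0.77 to -0.53). Its downstream kinase gene RPS6KB1 had -0.60 (-0.75 to -0.45), and TSC1, a gene of the complex that restrains mTOR, had -0.58 (-0.68 to -0.48). MXD1, a MAX partner that opposes MYC, had -0.56 (-0.65 to -0.46). The longest transcripts of this list had a median of 6344 bases, and relative to genes of like length its median was -0.14.

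**Figure D5:**
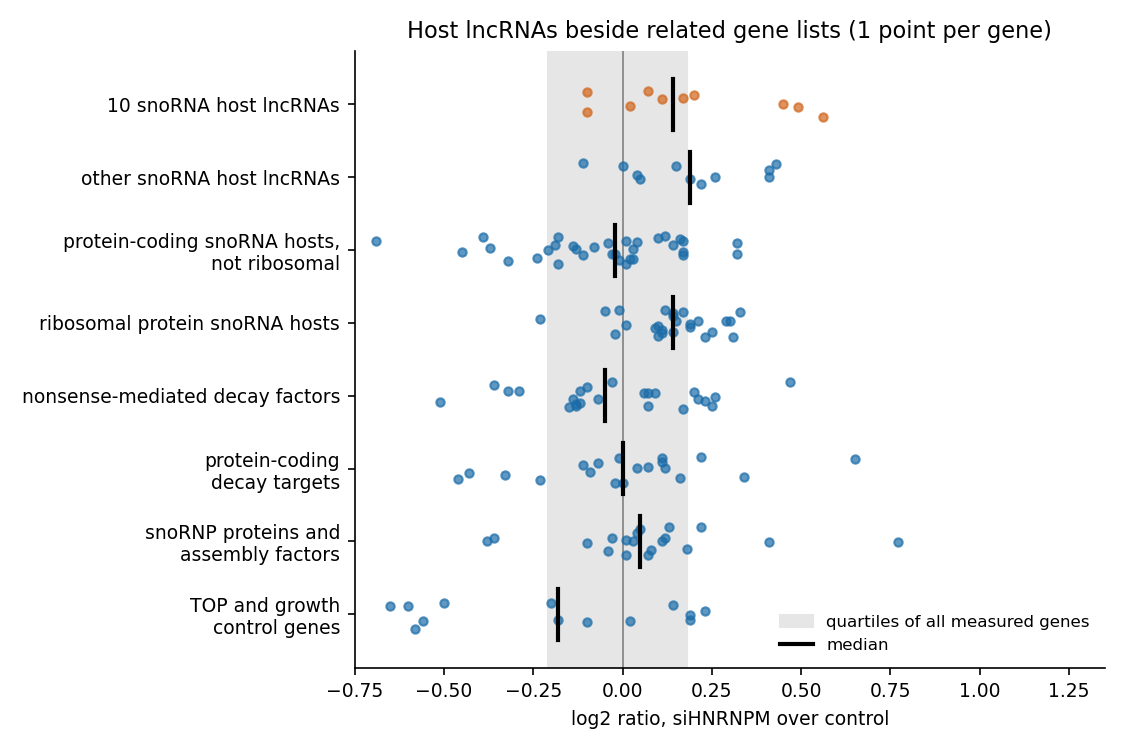
Log2 ratio (siHNRNPM over control), 1 point per measured gene, for the 10 host lncRNAs (orange) and 7 related gene lists (blue), with list medians as black bars and the quartiles of all measured genes shaded. The medians of the 10 hosts, the other host lncRNAs and the ribosomal protein hosts lie at 0.14, 0.19 and 0.14, and that of the TOP and growth control genes at -0.18.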

How the data were processed

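The values deposited by the authors are whole-number read counts per gene symbol for 2 libraries, with no normalization. HISAT2 2.0.4 and GRCh38 are named in the submitters' processing notes without a role. The counter, annotation, strand setting and treatment of multi-mapped reads are not given in the sources used here.

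Counts were scaled by TMM (edgeR 4.0.16, R 4.3.3), with factors of 1 and 0.998. For each log2 ratio the share of a gene's reads in either library gave an exact Clopper-Pearson 95% interval, and a level has the exact Poisson interval. Both cover counting error only and take reads as independent, so they are too narrow where reads are PCR copies. A gene was called higher or lower where its interval excluded a ratio of 1. A count of 0 was set to 0.5. Host, neighbour and list genes were named by rule: all hosts, genes that overlap a host or start within 2000 bases on the other strand, and up to 4 called genes per list, those farthest from a log2 ratio of 0. Of the neighbouring genes, 1 is not reported here. The hosts and lists were chosen with earlier results of these data known. Gene models came from GENCODE 29, and sequences from GENCODE and RefSeq. The procedure was tested on simulated data that held counting error only. That test checks the calculation and cannot assess variation between cultures or PCR copies. Alternatives covered scaling (total counts, DESeq2 1.42.0 size factors, upper quartile, protein-coding genes), filter, depth and transcript length.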

Additional observations from a re-analysis of the deposited data

How the results depend on the processing

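The count of 6 hosts higher stayed between 5 and 7 under every alternative of scaling, filter, depth and length class, and came to 1 (SNHG7) where the entire interval was required to exceed 0.32 in size on the log2 scale. The count of 1 host lower came to 0 with upper-quartile scaling, with scaling on protein-coding genes, with the control library thinned and under that 0.32 limit, while 0 hosts passed 2-fold in each of the 8 other settings tried for that count. The lower host was GAS5, whose interval ended at 0.01 with upper-quartile scaling, 0.00 with protein-coding scaling and 0.02 with thinning. Its log2 ratio of -0.10 under the main setting is smaller in size than 0.32. The filter settings could not move any of these counts of hosts, since all 10 hosts passed each filter with the same ratio and interval. SNHG16 was called higher under 2 of the 7 settings of scaling, filter and depth, and the median of the 10 hosts ran from 0.08 (length classes, added after the data were seen) to 0.17 (upper quartile). The median of the ribosomal protein hosts came to 0.18 with upper-quartile scaling. Relative to genes of like transcript length, SNHG6 came to 0.00 and ZFAS1 to 0.10. No paired analysis was possible because each group has 1 library. Depth limits SNHG12 most, at 143 and 132 reads.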

Other observations

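Split by the class of snoRNA they carry, the 21 measured host lncRNAs overlapped between classes. The hosts of H/ACA snoRNAs alone numbered 9, with a median log2 ratio of 0.22 and a range from -0.11 to 0.56, and the hosts of C/D snoRNAs alone numbered 7, with a median of 0.15 and a range from 0.02 to 0.41. The 2 hosts of both classes, SNHG12 and GAS5, had 0.49 and -0.10, and the 3 genes with no snoRNA entry inside their span, SNHG10, SNHG20 and SNHG21, had 0.05, 0.00 and 0.41. Among the 10 genes described here the H/ACA hosts SNHG7 and SNHG8 stood at 0.56 and 0.45 and SNHG15 at -0.10, whereas the 5 C/D hosts ran from 0.02 to 0.20. Outside the 10 genes, 6 H/ACA hosts had a median of 0.21 and 2 C/D hosts 0.28, so the order of the classes there was the other way round. This split was made after the values were seen.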
